A study of Mus musculus with 15 samples.

Results

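Sostdc1, Padi4, Asb2, Klhl4, Coro2b, Sccpdh, Cebpa and Cela1, genes seldom named in accounts of CD4 T cells, are described here across the 5 groups of an airway immunization study. They are 8 of the 49492 genes in the deposited count table. They were chosen from the measured values themselves, as genes higher in CD62L- than in CD62L+ primed cells, so that difference is given below as a description only. The choice states no minimum fold. All 8 were found in the table and all passed the filter on low counts.

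The cells are mouse CD4 T cells carrying the OT-II transgene, whose antigen receptor recognizes a peptide of ovalbumin. Naive OT-II cells (CD44 low, CD62L+, CD45.1+) came by sorting from spleen and superficial lymph nodes of untreated mice and form the naive group. The same kind of cells was injected into C57BL/6 (WT) or Batf3-/- recipients, both CD45.2+, which the next day received 60 µg ovalbumin with 30 µg papain, a cysteine protease, through the nose 3 times. On day 5, CD44 high donor cells of the mediastinal lymph node were sorted as CD62L- or CD62L+, giving 4 primed groups. Only the recipients lacked Batf3, a transcription factor that type 1 conventional dendritic cells need. Each group has 3 libraries, 15 in all, called independent replicates but not tied to animals, so p-values cover only the spread among libraries, which may be technical. Ages are not given in the sources used here.

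CD62L is a surface marker by which primed T cells are sorted, and among primed CD4 T cells the CD62L- cells include effector and follicular helper cells. The 8 genes belong to unrelated families. Sostdc1 encodes a secreted protein that antagonizes BMP and Wnt signals. Padi4 encodes an enzyme that converts arginine to citrulline, known from neutrophils, where it acts on histones. Asb2 and Klhl4 encode proteins of families that bring substrates to cullin ubiquitin ligases. Coro2b encodes a coronin, a family that binds actin. Cebpa encodes a transcription factor of myeloid cells, hepatocytes and adipocytes. Cela1 encodes a serine protease of the elastase family, and Sccpdh a protein named for its likeness to saccharopine dehydrogenase.

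The libraries held 38082967 to 99380475 counts. Ribosomal RNA loci took 2.81% to 3.86% of them in the libraries numbered 1 of all 5 groups and 6.25% to 12.35% in the others. All 6 T cell genes looked at, Cd3e, Cd3d, Cd4, Trac, Cd44 and Ptprc, had counts in every group. Batf3 had at most 20 counts over a group. B cell transcripts varied with the groups: the summed level of 12 B cell markers was 14.8 to 19.7 CPM (counts scaled to a common library size) in WT CD62L-, 30.3 to 44.99 in Batf3-/- CD62L-, 124.7 to 154.5 in WT CD62L+, 133.8 to 175.7 in Batf3-/- CD62L+ and 45.6 to 49.5 in naive libraries.

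The 8 genes lie on 7 chromosomes, with coordinates here from the deposited table (mm10). Sostdc1 (chr12:36314169-36318452, + strand) and Asb2 (chr12:103321142-103356001, − strand) share a chromosome. Padi4 lies at chr4:140745865-140774236 (−), Klhl4 at chrX:114474333-114560829 (+) and Coro2b at chr9:62419492-62537044 (−). Sccpdh lies at chr1:179668210-179687189 (+), Cebpa at chr7:35119293-35121928 (+) and Cela1 at chr15:100674425-100687920 (−). All are annotated as protein coding. Values are sums over all exons of a gene, and Cebpa is a single exon of 2636 bases. The sole exon overlap with another gene was 51 bases of Cebpa, 1.9% of its exons, on the opposite strand of a gene model with 44 counts over all libraries.

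Promoter windows, from 250 bases before to 50 bases after the RefSeq start (build GRCm38.p6), were at hand for 7 of the 8 genes, with 2 windows for Asb2. The 4 windows below are shown because they span the range from TATA-containing starts to a start dense in CG. Capitals mark every match, on either strand, to any of the 7 motifs searched. The TATA box was searched as TATAAA and the AP-1 motif as TGANTCA. The spaced palindrome of STAT factors was searched as TTCNNNGAA. Of the E-boxes, one was searched as CACGTG, while the other E-box searched for was CAGCTG. The GATA factor motif was searched as AGATAA, and the GC box of Sp1-like factors as GGGCGG. The motifs do not overlap each other in the windows shown. Sequences run 5′ to 3′ on the gene's strand.
Padi4, chr4:140774154-140774453, − strand: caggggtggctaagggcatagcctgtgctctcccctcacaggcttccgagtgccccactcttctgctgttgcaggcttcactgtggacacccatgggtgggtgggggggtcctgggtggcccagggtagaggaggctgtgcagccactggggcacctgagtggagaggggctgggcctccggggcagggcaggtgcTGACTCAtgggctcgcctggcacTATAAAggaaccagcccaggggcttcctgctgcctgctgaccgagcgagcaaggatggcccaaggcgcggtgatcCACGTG
Cebpa, chr7:35119043-35119342, + strand: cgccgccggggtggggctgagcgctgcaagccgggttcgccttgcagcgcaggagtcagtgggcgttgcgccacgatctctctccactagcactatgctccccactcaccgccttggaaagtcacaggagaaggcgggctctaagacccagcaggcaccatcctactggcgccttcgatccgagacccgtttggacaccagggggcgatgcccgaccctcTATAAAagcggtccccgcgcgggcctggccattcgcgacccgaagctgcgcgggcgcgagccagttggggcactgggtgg
Cela1, chr15:100687871-100688170, − strand: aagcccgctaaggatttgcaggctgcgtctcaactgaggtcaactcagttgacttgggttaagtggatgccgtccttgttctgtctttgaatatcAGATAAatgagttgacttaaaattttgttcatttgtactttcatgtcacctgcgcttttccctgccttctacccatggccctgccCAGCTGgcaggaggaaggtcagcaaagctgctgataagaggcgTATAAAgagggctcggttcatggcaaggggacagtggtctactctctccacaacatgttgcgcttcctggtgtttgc
Sccpdh, chr1:179667981-179668280, + strand: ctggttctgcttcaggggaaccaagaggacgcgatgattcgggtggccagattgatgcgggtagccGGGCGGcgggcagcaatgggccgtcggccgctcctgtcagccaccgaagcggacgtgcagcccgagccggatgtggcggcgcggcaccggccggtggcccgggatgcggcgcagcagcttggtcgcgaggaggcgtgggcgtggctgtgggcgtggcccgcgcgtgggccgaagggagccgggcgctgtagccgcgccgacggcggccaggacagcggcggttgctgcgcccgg

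TATAAA stood in 3 of the 8 windows, at −31 in Padi4, −30 in Cebpa and −27 in Cela1 relative to the start, and in 13.6% of all 32851 promoter windows. Padi4 also held TGACTCA at −54, a motif of 7.81% of windows, and CACGTG at 45. CACGTG was found in Padi4 and in the upstream window of Asb2, and in 7.15% of all windows. CAGCTG was found in 4 windows, those of Coro2b, Cela1, Klhl4 and the downstream start of Asb2, against 16.3% of all. AGATAA stood in the windows of Cela1 and Klhl4 (11.2% of all), GGGCGG in those of Sccpdh and the downstream start of Asb2 (35.7% of all), and TTCNNNGAA in none of the 8 (8.3% of all). The windows differed widely in composition. GC content ran from 46.3% in Klhl4 to 74.7% in Sccpdh, with a median of 52.7% over all windows. The observed to expected ratio of CG pairs was 0.06 in Klhl4 and 1.07 in Sccpdh. No motif searched was common to all 8 windows, and a match is a match of letters, not a bound site.

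Sostdc1, the secreted antagonist, was close to absent in naive cells and present in every primed library. Its level was 77.8, 62.4 and 59.4 CPM in the 3 WT CD62L- libraries and 9.90, 7.16 and 7.85 CPM in the WT CD62L+ libraries. In Batf3-/- recipients it was 67.8, 53.4 and 48.4 CPM in CD62L- and 11.0, 10.6 and 8.95 CPM in CD62L+ cells. The CD62L- libraries of both recipients overlapped each other, and all lay above every CD62L+ library. The naive libraries held 2 counts in all.

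Padi4, the arginine deiminase, was present at a low level before priming. The naive libraries had 2.06, 2.80 and 3.27 CPM, and the WT CD62L+ libraries 3.09, 3.60 and 1.15 CPM. WT CD62L- libraries had 40.3, 35.1 and 36.8 CPM, and those of Batf3-/- recipients 23.4, 20.4 and 16.3 CPM. The Batf3-/- CD62L+ libraries had 1.45, 1.43 and 1.59 CPM, below all naive libraries, while naive and WT CD62L+ libraries overlapped. The 2 CD62L- groups did not overlap each other.

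Asb2, whose protein is a substrate receptor of a cullin 5 ligase, spread more among replicates at low levels. It was 65.1, 51.8 and 44.0 CPM in WT CD62L- and 19.0, 17.7 and 19.5 CPM in Batf3-/- CD62L- libraries. CD62L+ libraries had 4.82, 7.08 and 2.30 CPM in WT and 5.04, 2.16 and 1.27 CPM in Batf3-/- recipients, and these overlapped. The naive libraries had 1.19, 0.0983 and 0.775 CPM, the second standing far below the others.

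Klhl4, a kelch-like protein gene on the X chromosome, had the pattern of Padi4, with naive libraries inside the CD62L+ range. Naive libraries had 2.62, 3.37 and 1.53 CPM, WT CD62L+ libraries 2.44, 1.97 and 1.08 CPM and Batf3-/- CD62L+ libraries 3.64, 1.49 and 1.86 CPM. These 3 groups overlapped one another. WT CD62L- libraries had 17.6, 24.9 and 15.9 CPM and Batf3-/- CD62L- libraries 8.79, 11.1 and 4.90 CPM, without overlap.

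Coro2b, the coronin, and Sccpdh formed graded series, with naive below CD62L+ and CD62L+ below CD62L- libraries. Coro2b was 47.2, 50.7 and 60.8 CPM in WT CD62L- and 20.6, 29.4 and 37.3 CPM in Batf3-/- CD62L- libraries. Its CD62L+ levels were 9.14, 8.77 and 9.35 CPM in WT and 5.72, 10.2 and 5.68 CPM in Batf3-/- recipients, and the naive levels 1.30, 1.56 and 0.849 CPM. The CD62L+ groups overlapped. Sccpdh was at 70.8, 77.5 and 70.1 CPM in CD62L- and 15.2, 16.5 and 16.1 CPM in CD62L+ libraries. In Batf3-/- recipients it was 55.3, 48.9 and 38.1 CPM and 8.89, 12.5 and 13.6 CPM, and in naive libraries 0.287, 0.712 and 0.394 CPM. No neighbouring groups of Sccpdh overlapped in the order WT CD62L-, Batf3-/- CD62L-, WT CD62L+, Batf3-/- CD62L+, naive.

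Cebpa, the C/EBP transcription factor gene, had the lowest group mean of the 8 in each primed group, in CPM and per exon length. It was 5.35, 6.59 and 4.42 CPM in WT CD62L- and 2.40, 5.89 and 6.30 CPM in Batf3-/- CD62L- libraries. WT CD62L+ libraries had 0.155, 0.662 and 0.473 CPM, and the Batf3-/- CD62L+ libraries 86, 0 and 12 counts. Within the Batf3-/- CD62L+ group 1 library thus held most of the signal. No naive library had a count.

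Cela1, the elastase family gene, had no count in naive libraries either. It was 19.3, 17.8 and 15.3 CPM in WT CD62L- and 4.68, 6.68 and 5.42 CPM in WT CD62L+ libraries. In Batf3-/- recipients it was 5.35, 8.68 and 8.66 CPM in CD62L- and 3.58, 1.79 and 1.80 CPM in CD62L+ libraries. WT libraries lay above Batf3-/- libraries in both subsets, and the Batf3-/- CD62L- and WT CD62L+ libraries overlapped. In bulk samples, fewer cells with a transcript and less of it per cell cannot be told apart, here and in all results below.

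**Figure D1:**
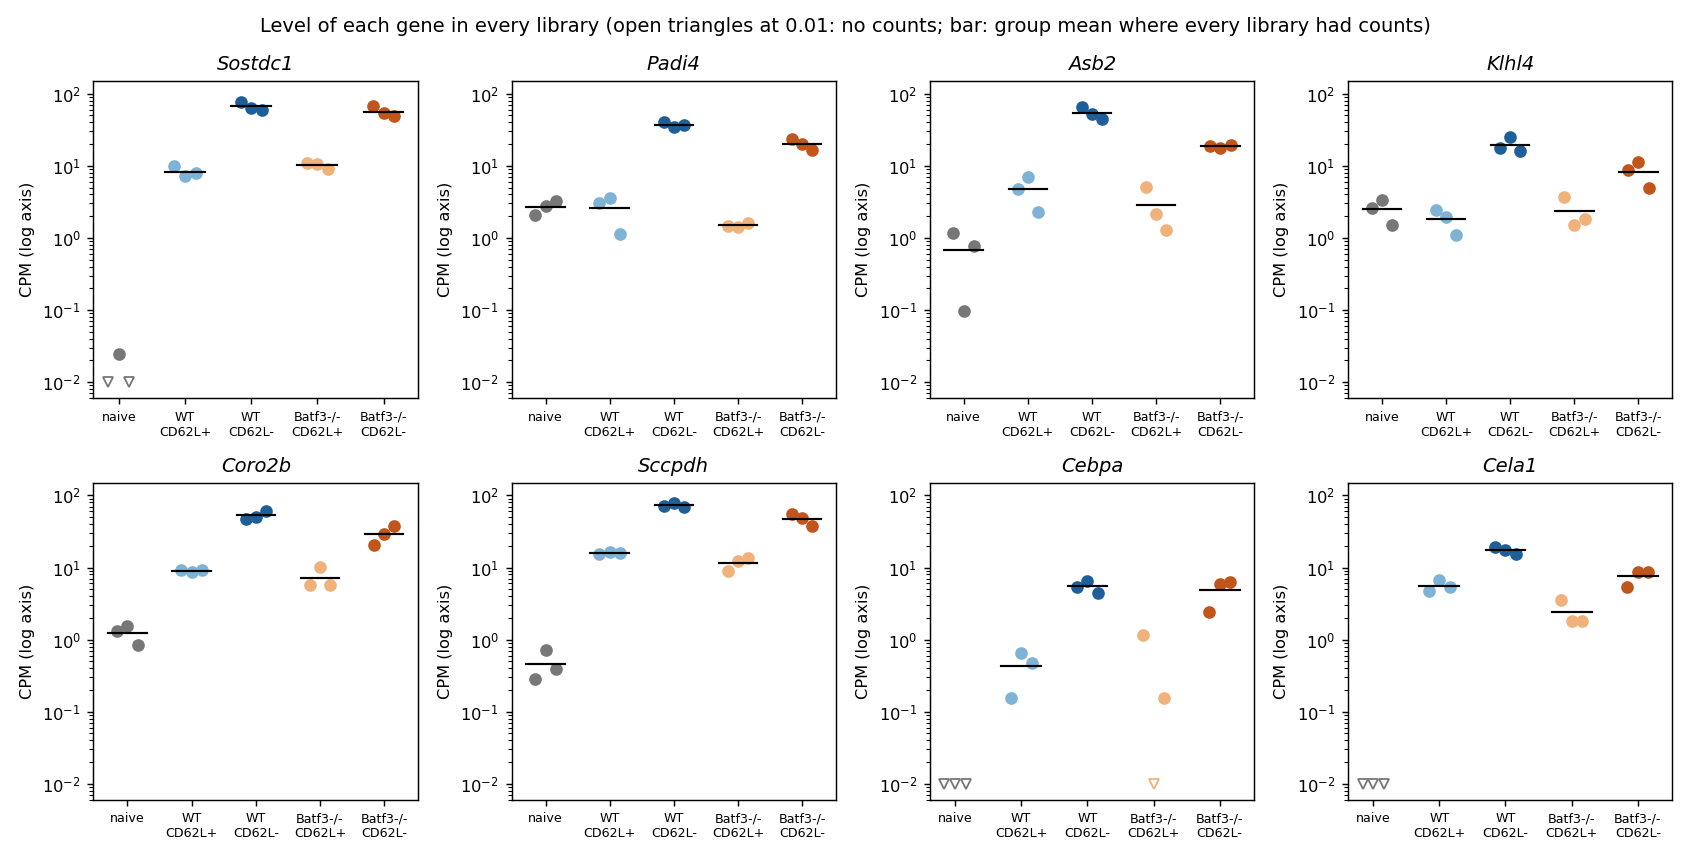
CPM of the 8 genes (log axis) in each of the 15 libraries by group, one point per library, with a bar at the group mean where every library had counts and open triangles for libraries with none. In every panel the 3 CD62L- libraries of a recipient lie above its 3 CD62L+ libraries, while naive libraries lie within the CD62L+ range for Padi4 in WT recipients and for Klhl4, and at or near 0 counts for Sostdc1, Cebpa and Cela1.

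Scaled to exon length, the genes could be compared with each other. In WT CD62L- cells Sostdc1 had the highest level per length of the 8, 38.0 ± 5.65 RPKM (CPM per kilobase of exon; mean ± SD, n = 3), next to 37.8 ± 5.30 for Cd44. Cela1 followed at 15.8 ± 1.83 and Asb2 at 15.1 ± 3.00 RPKM, which did not differ beyond their spread. Sccpdh (9.63 ± 0.541), Coro2b (8.94 ± 1.2) and Padi4 (7.73 ± 0.546 RPKM) lay below them, then Klhl4 at 5.43 ± 1.35 and Cebpa at 2.07 ± 0.413 RPKM. Cela1, only the seventh of the 8 by CPM, was second per length because its exons sum to 1103 bases, the shortest of the 8.

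The difference between the subsets, which chose the genes, was largest for Padi4 in WT recipients. Padi4 averaged 37.4 ± 2.64 CPM in CD62L- against 2.61 ± 1.30 CPM in CD62L+ cells (14.2-fold, log2 fold change 3.83, SE 0.34). In Batf3-/- recipients it averaged 20.02 ± 3.55 against 1.49 ± 0.0866 CPM (13.4-fold). The fold was also near the same in both recipients for Sccpdh (4.57 and 4.07) and Cela1 (3.12 and 3.16). For Cebpa the main fit gave 12.7 and 11.2, with SE of 1.10 and 1.09 on the log2 scale. Its value in Batf3-/- recipients was unstable, as given below. Sostdc1 differed 8.01-fold and 5.56-fold, Coro2b 5.82-fold and 4.04-fold, Asb2 11.3-fold and 6.62-fold and Klhl4 10.6-fold and 3.56-fold, in WT and Batf3-/- recipients, and whether any fold differs between recipients was not tested. Without the first Batf3-/- CD62L+ library the log2 fold change of Asb2 in Batf3-/- recipients was 3.43, against 2.73 with it and 3.50 in WT recipients.

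These folds chose the genes and have no test here. All 8 genes had CD62L- libraries above all CD62L+ libraries in both recipients, which 7.93% of the 19942 genes tested did in WT and 6.44% in Batf3-/- recipients. The fit over all genes called 7 of the 8 in WT recipients, where it called 0.672% of genes higher, and 5 in Batf3-/- recipients, where it called 0.286% higher. Nothing follows from these counts about the genes, since they restate the choice. Cebpa was called in neither, and Asb2 and Klhl4 were not called in Batf3-/- recipients. The size of the fold for Cebpa in Batf3-/- recipients depended on single CD62L+ libraries. Its log2 fold change was 3.48 with all libraries, larger without the first CD62L+ library (5.95) and smaller without the second (2.89). The fold of Cebpa there was also larger with voom (7.005) and without the libraries numbered 1 (6.28). In WT recipients it ran from 3.26 to 4.14 over all alternatives. Without the libraries numbered 1 the log2 fold change of Cela1 in Batf3-/- recipients was 2.27, against 1.66 with them. The share of mitochondrial counts separated the subsets as well, at 1.38% to 2.37% in WT CD62L- against 0.81% to 1.16% in WT CD62L+ libraries, and at 1.65% to 2.2% against 0.76% to 1.58% in Batf3-/- recipients. Its part in the difference was not tested.

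**Figure D2:**
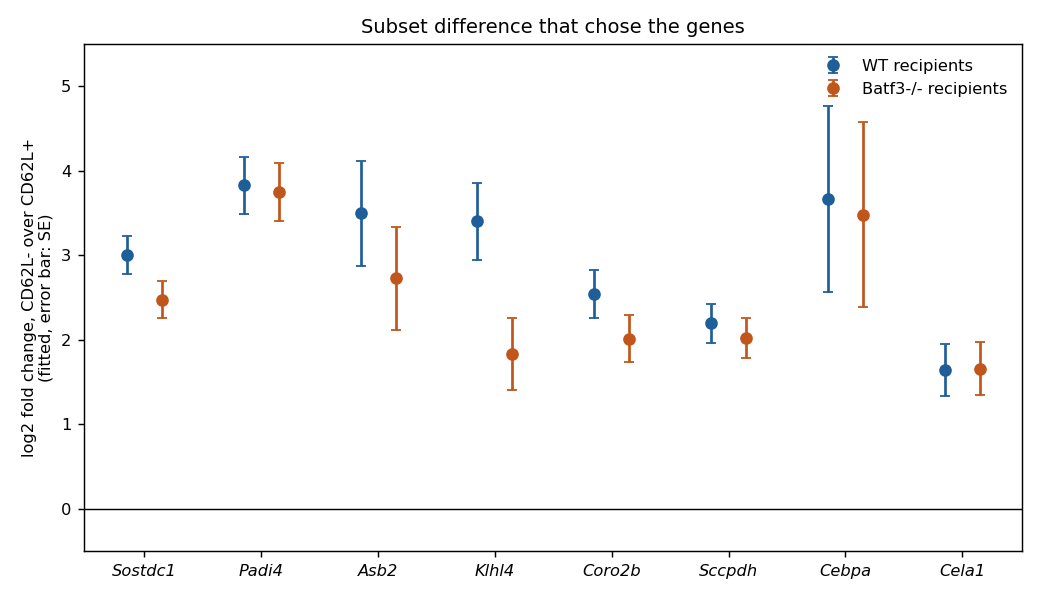
Fitted log2 fold change of CD62L- over CD62L+ cells for each gene in WT (blue) and Batf3-/- (orange) recipients, with SE bars. The values run from 1.64 for Cela1 in WT to 3.83 for Padi4 in WT recipients, and Cebpa has the widest bars.

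Whether the genes were higher in primed than in naive cells was tested with the mean of the 4 primed groups. This contrast is orthogonal to the subset difference that chose the genes. Orthogonal contrasts are independent only where groups have equal spread, and the spread differed between groups. Transfer, host and sort differed along with priming, and their effects cannot be told apart from it. The quasi-likelihood test of edgeR, adjusted by Benjamini-Hochberg over 19942 genes, called 19.5% of all genes higher and 19.3% lower. Padi4, Klhl4, Coro2b and Sccpdh reached the level of the low-count filter (0.129 CPM) in all 3 naive libraries, and Asb2 in 2 of them. Sostdc1, Cebpa and Cela1 reached it in none, so that they entered the test only through the primed libraries where they are high, and no count over the 8 is given. Sccpdh had a log2 fold change of 5.94 (SE 0.28, adjusted p = 8.93e-10), Asb2 of 3.95 (SE 0.61, adjusted p = 0.000139) and Coro2b of 3.85 (SE 0.28, adjusted p = 7.98e-08). Without the first naive library the value of Asb2 was 4.62, and with voom 4.79. The primed average of Padi4 was higher by 1.44 (SE 0.27, edgeR adjusted p = 0.000683). That of Klhl4 was higher by 1.03 (SE 0.35, edgeR adjusted p = 0.0323). The call of Klhl4 was lost without the first naive library (adjusted p = 0.0834), without the third (0.166) and without the libraries numbered 1 (0.141). Over all alternatives its adjusted p ran from 0.00615 to 0.166. In CD62L+ cells neither Padi4 (-0.04 in WT, -0.86 in Batf3-/- recipients) nor Klhl4 (-0.45 and -0.11) was higher than in naive cells. Their higher averages thus rest on the CD62L- groups, whose libraries the choice used.

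Sostdc1, Cebpa and Cela1 had 2, 0 and 0 naive counts, and for them the levels are given with bounds or counting intervals and no test. Taking 3 counts in the naive libraries together as the upper limit, Cela1 was at least 1591-fold higher in WT CD62L- and at least 657-fold higher in Batf3-/- CD62L- cells. Cebpa was at least 499-fold and 414-fold higher in these groups. Sostdc1 gave ratios of 9102 (95% Poisson interval 2520 to 75160) and 7692 (2129 to 63510). Intervals and floors cover the counting error of the naive libraries only, and amplified reads are not independent molecules. If mates were counted singly, which the even low counts leave possible, these bounds are too high and the intervals too narrow.

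The CD62L+ cells alone were also compared with naive cells. The genes were chosen for being lower in CD62L+ cells, which works against a rise here. Of all genes, 15.8% were called higher in WT CD62L+ and 16.9% in Batf3-/- CD62L+ than in naive cells. Of the 5 genes with counts in every naive library, Sccpdh, Coro2b and Asb2 were called higher in both. These comparisons share the naive libraries. Sccpdh was 34.7-fold (adjusted p = 9.82e-09) and 25.4-fold higher (2.17e-08), Coro2b 7.34-fold (4.11e-06) and 5.82-fold (1.14e-05), and Asb2 6.81-fold (0.00473) and 4.05-fold (adjusted p = 0.0256, edgeR). Asb2 in Batf3-/- recipients lost the call without the first CD62L+ library (adjusted p = 0.135), the second naive (0.0559) or the third naive library (0.0629), without the libraries numbered 1 (0.0863) and with only the groups compared (0.112). Its log2 fold change there was 2.02, and 1.34 without the first CD62L+ library, 2.69 without the first naive library and 2.68 with voom. In WT recipients it was 2.77, and 3.44 without the first naive library, 3.43 without the libraries numbered 1 and 3.51 with voom.

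Cela1 was at least 502-fold higher in WT CD62L+ and at least 212-fold in Batf3-/- CD62L+ than in naive cells, and Sostdc1 gave ratios of 1115 (95% Poisson interval 308.6 to 9204) and 1358 (375.8 to 11210). These bounds and intervals carry the limits given above. Cebpa was at least 38.2-fold and 37.8-fold higher, with the same limits. The latter bound rests on the first Batf3-/- CD62L+ library, which held 86 of the 98 counts, and without it the bound was at least 6.8-fold.

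Padi4 and Klhl4 did not pass. Padi4 differed from naive cells by a log2 fold change of -0.04 in WT CD62L+ cells (95% interval -0.71 to 0.63, adjusted p = 0.95) and of -0.86 in Batf3-/- CD62L+ cells (-1.54 to -0.18, edgeR adjusted p = 0.0557). In the latter its adjusted p ran from 0.00576 to 0.182 over the alternatives, and it passed under 5 of them: without the third WT CD62L+ library (0.00576) or the second (0.046), without the first naive library (0.0436), with the stricter filter (0.0411) and with DESeq2 (0.024). Klhl4 differed by -0.45 (-1.35 to 0.46) in WT and by -0.11 (-1.01 to 0.79) in Batf3-/- recipients.

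Whether the genes differed between cells from Batf3-/- and WT recipients was tested with the average of both subsets. It is also orthogonal to the subset difference of either recipient, but independent of it only where groups have equal spread. In WT recipients the SD of Padi4 was 49.55% of the mean in CD62L+ and 7.07% in CD62L- cells, and that of Sostdc1 17.19% and 14.86%. Cela1 was the single gene of the 8 called lower, at 7.56 ± 1.92 against 17.5 ± 2.02 CPM in CD62L- and 2.39 ± 1.03 against 5.59 ± 1.01 CPM in CD62L+ cells. Its log2 fold change was -1.22 (SE 0.22, 95% interval -1.69 to -0.74, edgeR adjusted p = 0.0412). The call was close to the threshold: it held in 12 of 24 alternatives, with an adjusted p from 2.16e-05 to 0.108, and its log2 fold change ran from -1.42 to -1.12. Leaving out any CD62L- library, the second or the third Batf3-/- CD62L+ library or any WT CD62L+ library ended it. Over all genes the test called 0.17% lower and 0.271% higher.

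The other genes did not pass. Their log2 fold changes were -1.14 for Asb2 (95% interval -2.01 to -0.26), -0.86 for Padi4 (-1.33 to -0.39), -0.60 for Coro2b (-1 to -0.19) and -0.54 for Sccpdh (-0.88 to -0.19). With Cela1 these 5 had an unadjusted p under 0.05, which 5.45% of all genes had in the lower direction. Given the unequal spread, this count is not fully independent of the choice. Klhl4 was at -0.45 (-1.08 to 0.19), Sostdc1 at 0.03 (-0.29 to 0.34) and Cebpa at -0.08 (-1.63 to 1.48). For the average of Sostdc1 the interval excludes a 1.5-fold difference in either direction, while for Cebpa it includes more than 2-fold both ways. Within subsets Sostdc1 was at -0.24 (-0.68 to 0.21) in CD62L- and at 0.29 (-0.16 to 0.74) in CD62L+ cells. These intervals do include a 1.5-fold difference, lower in CD62L- and higher in CD62L+ cells. Padi4 passed with DESeq2 (adjusted p = 0.00863) and without the third WT CD62L+ library (0.017), and Sccpdh with DESeq2 (0.0201) and voom (0.0213).

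The recipients were also compared within CD62L- cells. In these, 6 of the 8 genes, all except Sostdc1 and Cebpa, had every Batf3-/- library below every WT library, which 5.69% of all genes did. The largest gap was that of Asb2, 18.7 ± 0.911 against 53.6 ± 10.6 CPM. Klhl4 had 8.28 ± 3.16 against 19.5 ± 4.82, Coro2b 29.1 ± 8.36 against 52.9 ± 7.07 and Sccpdh 47.4 ± 8.66 against 72.8 ± 4.09 CPM. No gene of the 8 was called by edgeR with adjustment over all genes, which called 0.0251% lower. At an unadjusted p under 0.05 the count was 6 of 8, against 4.25% of all genes in that direction. DESeq2 called 1 (Cela1, adjusted p = 0.0113) and voom 3 (Asb2, 0.0209, Cela1, 0.0205, and Sccpdh, 0.0351).

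The 8 were chosen for higher values in CD62L- than in CD62L+ cells. High WT CD62L- values favour both that choice and this difference, so the count of 6 is not independent of the choice. Depth and B cell transcripts moved with the same groups. The WT CD62L- libraries held 38082967 to 64938211 counts and the Batf3-/- CD62L- libraries 77620291 to 89129489, and the B cell marker sums given above did not overlap either. Their part in the result was not tested.

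In CD62L+ cells 2 of the 8 genes, Cela1 and Sccpdh, had Batf3-/- libraries below all WT libraries, against 6.22% of all genes. None was called by edgeR, which called 0.00501% of genes lower. At an unadjusted p under 0.05 there were 2, Cela1 and Padi4, against 3.1% of all genes. DESeq2 and voom called 1, Cela1 (adjusted p = 0.0275 and 0.0297). The choice of the 8 used these CD62L+ libraries too, so these counts and calls are not independent of it. Cela1 had the same log2 fold change of about -1.2 in both subsets, -1.21 in CD62L- and -1.22 in CD62L+ cells. Klhl4 was -1.23 in CD62L- and 0.34 in CD62L+ cells, and this difference between subsets was not tested because the subset difference chose the gene.

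**Figure D3:**
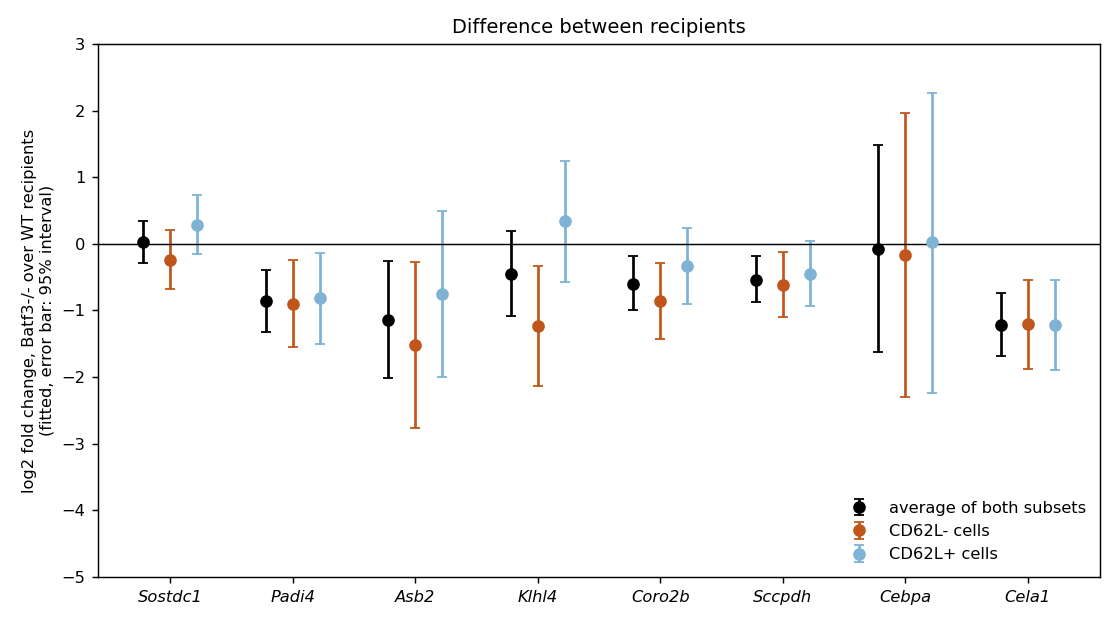
Fitted log2 fold change of Batf3-/- over WT recipients for each gene, with 95% intervals, as the average of both subsets (black), in CD62L- (orange) and in CD62L+ cells (light blue). Cela1 lies near -1.2 in all 3, Sostdc1 near 0 in the average, and the intervals of Cebpa span more than 2-fold in both directions.

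Relatives of the 8 genes were looked at in lists of their families and pathways. None of the other 4 peptidylarginine deiminase genes was called between recipients. Padi2 was lower in all primed groups, while Padi4 was higher than in naive cells only in CD62L- cells. Padi2 fell from a mean of 32.9 CPM in naive cells to 1.76 CPM in WT CD62L-, 1.83 in WT CD62L+, 0.523 in Batf3-/- CD62L- and 1.25 CPM in Batf3-/- CD62L+ cells (log2 fold change of the primed average -4.78, SE 0.51, edgeR adjusted p = 4.55e-06). Of the other 5 coronins tested, 4 rose with priming and none fell, beside 19.5% of all genes called higher and 19.3% lower, and their median log2 fold change was 0.88. Coro1b (log2 fold change 1.04), Coro7 (0.88) and Coro1c (0.61) were abundant, while Coro2a was at 0.83 to 1.94 CPM in primed groups (edgeR adjusted p = 0.00914). Coro2a, counted among the 4, had a naive mean of 0.0942 CPM, under the level of the low-count filter. It thus entered the test only through primed libraries where it is high. None of the other 5 C/EBP family genes tested was called with priming or between recipients, with a median log2 fold change of 0.10 with priming, against -0.05 over all genes.

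In the list of ASB and cullin 5 ligase genes, 11 others were tested. Asb5 (log2 fold change 1.02) and Rnf7 (0.29), a RING subunit of that ligase, rose with priming and Asb13 (-1.60) fell. Of all genes, 19.5% were called higher and 19.3% lower. Of 30 others in the kelch-like and cullin 3 list, 1 rose and 14 fell with priming, with a median of -0.37, beside 19.5% and 19.3% of all genes and a median of -0.05 over them. Klhl25 rose by 0.53. Klhl3, Klhl6, Klhl7, Klhl8, Klhl9, Klhl17, Klhl18, Klhl20, Klhl21, Klhl22, Klhl28 and Klhl42 fell, with log2 fold changes from -1.52 for Klhl8 to -0.33 for Klhl20, as did Keap1 (-0.34) and 1 gene under 1 CPM. Klhl3 was also called between the WT subsets, in the direction opposite to Klhl4. It was at 1.27 CPM in CD62L- against 3.46 CPM in CD62L+ cells (log2 fold change -1.44, edgeR adjusted p = 0.0368). In Batf3-/- recipients Klhl3 was not called (-0.70, edgeR adjusted p = 0.561). The share of all genes called lower between subsets was not counted.

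Of 4 other pancreatic-type serine protease genes tested, Ctrl fell with priming (-2.41) and none rose. In the saccharopine pathway 2 others were tested, and Aldh7a1 rose (1.22, edgeR adjusted p = 0.000801). Beside both lists, 19.5% of all genes were called higher and 19.3% lower. In the BMP and Wnt coreceptor list, which holds the pathways that Sostdc1 is known to antagonize, 5 of 21 others rose with priming and 6 fell, shares near the 19.5% and 19.3% of all genes. The ligand Bmp7 rose 9.84-fold (log2 fold change 3.30, SE 0.22, edgeR adjusted p = 3.53e-08), and the receptor Bmpr2 and the targets Id2 and Id3 rose 2.38-fold, 5.10-fold and 3.06-fold. The coreceptor Lrp6, the signal transducers Smad1 and Smad5, the inhibitor Smad7 and the nuclear factor Lef1 fell, Lef1 2.15-fold, with 1 gene under 1 CPM. The nuclear factor Tcf7 rose 1.48-fold. Between recipients Id2 alone was called, lower by 0.28 on the log2 scale (edgeR adjusted p = 0.0481), beside 0.17% of all genes. Id2 was also lower in CD62L- than in CD62L+ cells of WT recipients (-0.51, edgeR adjusted p = 0.00476). In Batf3-/- recipients that difference was not called (-0.21, edgeR adjusted p = 0.453).

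Padi4 and Cebpa are best known from myeloid cells, and Cela1 belongs to a family of pancreatic elastases, so markers of those cells were looked at in the same libraries. The summed level of 13 neutrophil markers was at most 1.74 CPM in any library. In WT CD62L- libraries it was 0.0148 to 0.597 CPM, beside 35.1 to 40.3 CPM of Padi4, and 10 of the 13, among them S100a8, S100a9, Elane and Camp, had no counts. In Batf3-/- CD62L- libraries it was 0.0214 to 1.74 CPM with 6 at 0.

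The 13 monocyte, macrophage and dendritic cell markers summed to 62.6 to 76.2 CPM in WT CD62L- and 68.5 to 73.7 CPM in WT CD62L+ libraries, which overlapped, and Cd14, Clec9a, Fcgr1 and Itgax had no counts in WT CD62L- cells. In Batf3-/- recipients the sums overlapped as well, at 72.7 to 80.5 in CD62L- and 76.7 to 82.6 CPM in CD62L+ libraries. The 7 pancreatic acinar markers summed to at most 1.17 CPM in any library, with Amy2a5, Cela3b, Cpa1, Ctrb1 and Pnlip at 0 in every group. CD8 and NK cell markers (7 genes) summed to 34.8 to 45.9 CPM in WT CD62L- and 33.2 to 35.9 CPM in WT CD62L+ libraries, which overlapped, and in Batf3-/- recipients to 41.6 to 48.96 against 32.8 to 35.4 CPM, which did not. Stromal and endothelial markers (8 genes) summed to 281.0 to 316.5 CPM in WT CD62L- and 336.1 to 383.3 CPM in WT CD62L+ libraries. These did not overlap. In Batf3-/- recipients they summed to 270.8 to 297.9 against 280.9 to 305.3 CPM, with overlap. The median naive sum was 296.5 CPM, although Ccl21a, Col1a1, Col1a2, Cxcl13 and Pdpn had no naive counts. The naive sum thus came from the other genes of the list. Of 5 of these markers tested, edgeR called 4 higher and 1 lower in the primed average, beside 19.5% and 19.3% of all genes. Their median log2 fold change was 7.23. Any without naive counts entered the test only through primed libraries. The part of any of these cell types in the results was not tested.

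Of 15 follicular helper cell markers, 14 were called higher in the primed average than in naive cells, beside 19.5% of all genes, with a median log2 fold change of 5.56 against -0.05 over all genes. Naive means of Il21 (0.00637 CPM) and Il4 (0.0592 CPM) were under the filter level of 0.129 CPM, and Ascl2 had no naive counts. Such markers entered the test only through primed libraries where they are high, which limits the count of 14. The sum of the 15 markers was 4190 to 4622 CPM in WT CD62L- against 3259 to 3487 CPM in WT CD62L+ libraries, and 3868 to 3967 against 3299 to 3523 CPM in Batf3-/- recipients. The CD62L- sums of the recipients did not overlap. Between recipients 2 of the 15 were called lower, beside 0.17% of all genes, and none higher, and the part of these cells in the results was not tested.

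The genes most like each of the 8 were sought by Pearson's r of log2 CPM over the 12 primed libraries, among 10268 genes. This is a description, since the 12 libraries form 4 groups and any gene that differs between subsets scores high. Sostdc1 was most like Cxcr5 (r = 0.977), Bcl6 (0.973) and Il21 (0.968), the chemokine receptor, transcription factor and cytokine of follicular helper cells, and its r with Cxcr5 over all 15 libraries was 0.995. Padi4 was most like Cxcr5 (0.978), the kinase gene Matk (0.974) and Sccpdh (0.973). Over all 15 libraries its r with Cxcr5 was only 0.519 and with Matk 0.97. Matk, like Padi4, had similar means in naive (36.1 CPM) and WT CD62L+ cells (33.3 CPM).

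Asb2 was most like the cytokine gene Il4 (0.969), Padi4 (0.957) and Ccdc126 (0.957). Klhl4 was most like Nfkb1 (0.948), an NF-kB subunit gene, the death receptor gene Fas (0.947) and the prion protein gene Prnp (0.941). Coro2b was most like S100a11 (0.988), H2-Q2 (0.972) and Fuca2 (0.969), and Sccpdh like H2-Q2 (0.982), the coinhibitory receptor gene Tigit (0.979) and Cxcr5 (0.975). H2-Q2 belongs to a class I family with near-identical members, so its counts are uncertain. Cebpa was most like Cpeb1 (0.929), Ppm1d (0.929) and Tcn2 (0.906), the lowest values of the 8 genes. Cela1 was most like Art2b (0.974), a cell surface ADP-ribosyltransferase gene, Popdc2 (0.953) and Smtn (0.946). Over all 15 libraries its r was 0.425 with Art2b, 0.978 with Popdc2 and 0.965 with Smtn.

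Among themselves the 8 genes had r from 0.74 to 0.97 over the 12 primed libraries, with a median of 0.90 over 28 pairs, the lowest for Sostdc1 with Cela1. Most of this comes from the group means that the choice fixed. After each library's deviation from its group mean was taken, r ran from -0.74 to 0.84 with a median of -0.05, and 13 of 28 pairs were positive. Cebpa and Cela1 deviated together (0.84), as did Asb2 with Cela1 (0.65), Klhl4 (0.61) and Padi4 (0.54), while Sccpdh and Cela1 deviated in opposite directions (-0.74). In Batf3-/- CD62L- cells, for example, the first library was the lowest of the 3 for Cebpa, Cela1 and Coro2b and the highest for Sostdc1, Padi4 and Sccpdh. These values are over 12 libraries of 4 groups that share depth and preparation, and they carry no test.

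**Figure D4:**
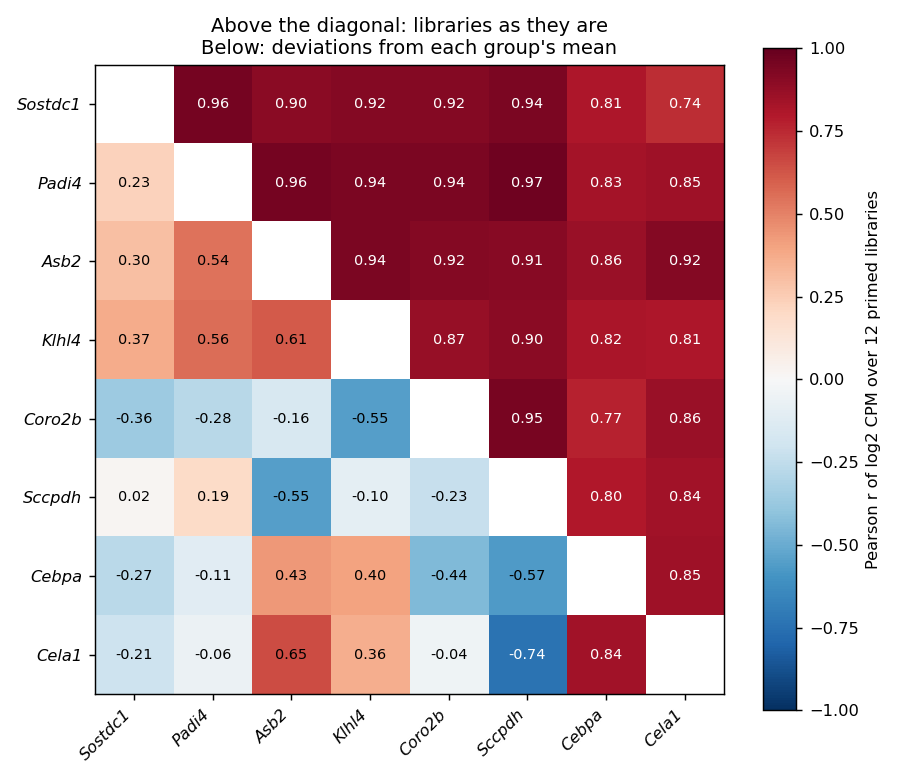
Pearson's r of log2 CPM between each pair of the 8 genes over the 12 primed libraries, from the libraries as they are (above the diagonal) and from deviations from each group's mean (below). All values above the diagonal lie between 0.74 and 0.97, while those below run from -0.74 to 0.84.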

How the data were processed

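RNA of sorted T cells was amplified and sequenced in 15 libraries, per the labels' protocols. The authors deposited raw counts per gene in 1 table with gene positions and lengths. The submitters' processing notes name STAR 2.7.3a, Subread 1.6.5 with its featureCounts, Trimmomatic 0.36, FastQC and the build mm10. Not given in the sources used here are the annotation release and the counting options. Of the counts from 1 to 20, 61.0% to 69.5% were even, so mates may have been counted singly. Replicates of a group differed by more than sampling noise (chi-square over degrees of freedom 42.4 to 641.7).

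Counts were tested with edgeR 4.0.16 (R 4.3.3), robust quasi-likelihood, TMM scaling and filterByExpr with a minimum count of 10, which left 19942 genes. All 15 libraries entered 1 fit of the 5 groups. P-values were adjusted by Benjamini-Hochberg over all genes tested, with a threshold of 0.05. The SE is the log2 fold change over the root of F, and log2 CPM used a prior count of 2. RPKM is CPM per kilobase of the deposited exon length. Procedures were tested on simulated data. The 8 genes, the family and marker lists and the naming rules were chosen with earlier results of these data known. Named are all 8 genes, family members called and at 1 CPM or more in a group, label checks (1 of them not reported here), and the 3 genes most like each of the 8. Alternatives were DESeq2 1.42.0, limma 3.58.1 (voom), RLE scaling, other filters, the compared groups alone, a replicate block and libraries left out. Leaving out the libraries numbered 1 was added after seeing the data.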

Additional observations from a re-analysis of the deposited data

How the results depend on the processing

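The number of the 8 genes called between recipients depended on the tool. For the recipient average it was 1 with edgeR, 3 with DESeq2, 2 with voom, 0 without the third CD62L- library of both recipients, and 0 to 1 with each library left out. Within CD62L- cells it was 0 with edgeR, 1 with DESeq2 and 3 with voom, and within CD62L+ cells 0, 1 and 1. Over all genes the recipient average gave 88 calls with edgeR, 620 with DESeq2, 327 with voom, 26 without the libraries numbered 1 and 36 to 132 with each library left out. CD62L- cells gave 10, 431, 79, 0 and 4 to 31, and CD62L+ cells 1, 142, 70, 0 and 0 to 6. The cause was not tested.

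The fold between subsets was positive in 384 of 384 alternative values. That fold chose the genes and the alternatives reuse the same libraries, so this count lends no support. The recipient average of Cela1, Padi4, Asb2, Coro2b and Sccpdh was negative in 120 of 120. These 5 were picked for an unadjusted edgeR p under 0.05 in the main fit, so a stable sign was likely beforehand. Signs turned only for values that did not pass the test. For Cebpa between recipients, the log2 fold change in CD62L+ cells was 0.02, and -3.43 with voom, -0.15 with the replicate block, -2.87 without the libraries numbered 1 and -2.45 to 0.60 with a library left out. In CD62L- cells Cebpa was at -0.17, at 0.14 without the libraries numbered 1 and at -0.40 to 0.16 with a library left out, and its recipient average ran from -1.32 to 0.21 with a library left out and was -1.78 with voom. With a library left out, the recipient average of Sostdc1 ran from -0.047 to 0.097, Klhl4 between recipients in CD62L+ cells from -0.12 to 0.60, Klhl4 in Batf3-/- CD62L+ against naive cells from -0.54 to 0.17, and Padi4 in WT CD62L+ against naive cells from -0.34 to 0.31.

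Same-numbered libraries of different groups had deviations correlated at 0.016 to 0.111, all above 0 but over 0.1 in only 4 of 30 pairs, and differently numbered ones at -0.106 to 0.03. Since not every pair was over 0.1, the main fit did not pair the samples by number. That limit does not show that same-numbered libraries share nothing, and those numbered 1 stood apart in ribosomal RNA in all 5 groups. The main tests do not account for what same-numbered libraries share. With the replicate block the recipient average gave 201 calls over all genes (88 without it), CD62L- cells 74 (10) and CD62L+ cells 32 (1). Of the 8 genes, 1, 0 and 0 were called with the block. Low counts limit Cebpa most.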
